A study of Homo sapiens with 6 samples.

Results

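The expression of 10 ERK feedback and immediate early genes was described in MV4-11 cells after treatment with the WNK inhibitor WNK463. The genes were *DUSP4*, *DUSP5*, *DUSP6*, *SPRY2*, *SPRED1*, *ETV5*, *EGR1*, *FOS*, *FOSL2* and *IER3*. They were selected by symbol, as transcripts known to respond to ERK activity, and each had 1 row among the 20348 genes of the table. MV4-11 is an established human acute myeloid leukemia (AML) cell line with monocytic features and an activating duplication in the receptor kinase FLT3. RNA was taken from 3 Control samples, left untreated, and from 3 samples treated with 1 μM WNK463 for 48 h, in a study of how the compound acts on AML cells. All samples came from this single cell line at a single dose and time. No vehicle is named for the Control samples, so an effect of a solvent and an effect of the compound cannot be told apart. The labels do not state that the samples were separate cultures, so p-values measure the spread between these samples, which may be technical.

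ERK is the last kinase of the cascade that runs from receptor kinases through RAS, RAF and MEK. Active ERK switches on immediate early genes within minutes, among them *EGR1* and the FOS genes, whose products are transcription factors. It also induces its own inhibitors. The dual specificity phosphatases remove phosphate from ERK and related kinases, while the Sprouty and SPRED proteins act on the cascade upstream. For this reason the RNA levels of these genes are widely read as a record of ERK output, although other pathways regulate them as well.

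Total counts per sample ranged from 14915745 to 17411780. After the filter on low counts 11973 genes were tested, and the variation between replicates was 5.21% (the square root of edgeR's common dispersion). No pair of replicates was a repeat of the same library, since each pair differed by more than sampling noise (chi-square over degrees of freedom 2.64 to 7.3). All 9 markers of myeloid AML cells were detected, with a summed level of 2377 to 2495 CPM (counts relative to the TMM-scaled library size) in Control and 1488 to 1535 CPM with WNK463. This fall was mostly that of *LYZ* (mean 1355 and 291 CPM), and the list moved both ways, since *FLT3*, *CD33* and *MPO* were also lower, *ITGAM*, *CSF1R*, *CEBPA* and *PTPRC* were higher, and *SPI1* did not pass. The 6 macrophage markers summed to 1.22 to 2.74 CPM in Control and 3.44 to 4.4 CPM with WNK463. Most of the Control sum was *MARCO*, which did not pass (mean 1.76 and 1.45 CPM). *APOE* and *C1QB* were higher, but they had at most 2 counts in any Control sample and passed the filter only through the WNK463 samples. *CD14* was below the filter, and *CD163* and *MRC1* had at most 1 count in any sample. The 4 erythroid markers were at 0 in every sample, and the 5 lymphoid markers summed to at most 1.21 CPM. The 6 epithelial or stromal markers summed to 102 to 114 CPM in Control and 176 to 189 CPM with WNK463. Nearly all of that sum was *PECAM1*, which myeloid cells also express (mean 96.9 and 169 CPM), and *KRT8* (9.41 and 12.5 CPM), while *EPCAM*, *KRT19* and *COL3A1* were at 0 and *COL1A1* had at most 5 counts. The part of these shifts in the results below was not tested.

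Of the 10 genes, 9 passed the filter. With edgeR and a limit of 0.05 on the adjusted p, 4 were higher after WNK463 (*DUSP4*, *DUSP5*, *SPRY2* and *IER3*) and 1 was lower (*FOSL2*), while *DUSP6*, *ETV5*, *EGR1* and *FOS* did not pass. Over all tested genes 35.5% were higher and 35.3% lower by the same rule, so that 70.8% of all genes were called, beside 5 of these 9. By sample values alone, 4 of the genes had all WNK463 samples above all Control samples and 1 had them below, against 37.1% and 36.4% of all genes, or 73.5% in either direction. With a limit of at least 1 on the absolute log2 fold change, 2 of the genes were higher (*DUSP4* and *DUSP5*, against 9.62% of all genes) and 1 was lower (*FOSL2*, against 5.55%), where 15.2% of all genes passed in either direction. The median log2 fold change of the 9 genes was 0.21, beside 0.02 for all tested genes, and it was 0.13 without Control replicate 3 and 0.12 without WNK463 replicate 1. In bulk RNA a change in the share of cells that express a gene and a change in RNA per cell cannot be told apart.

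**Figure D1:**
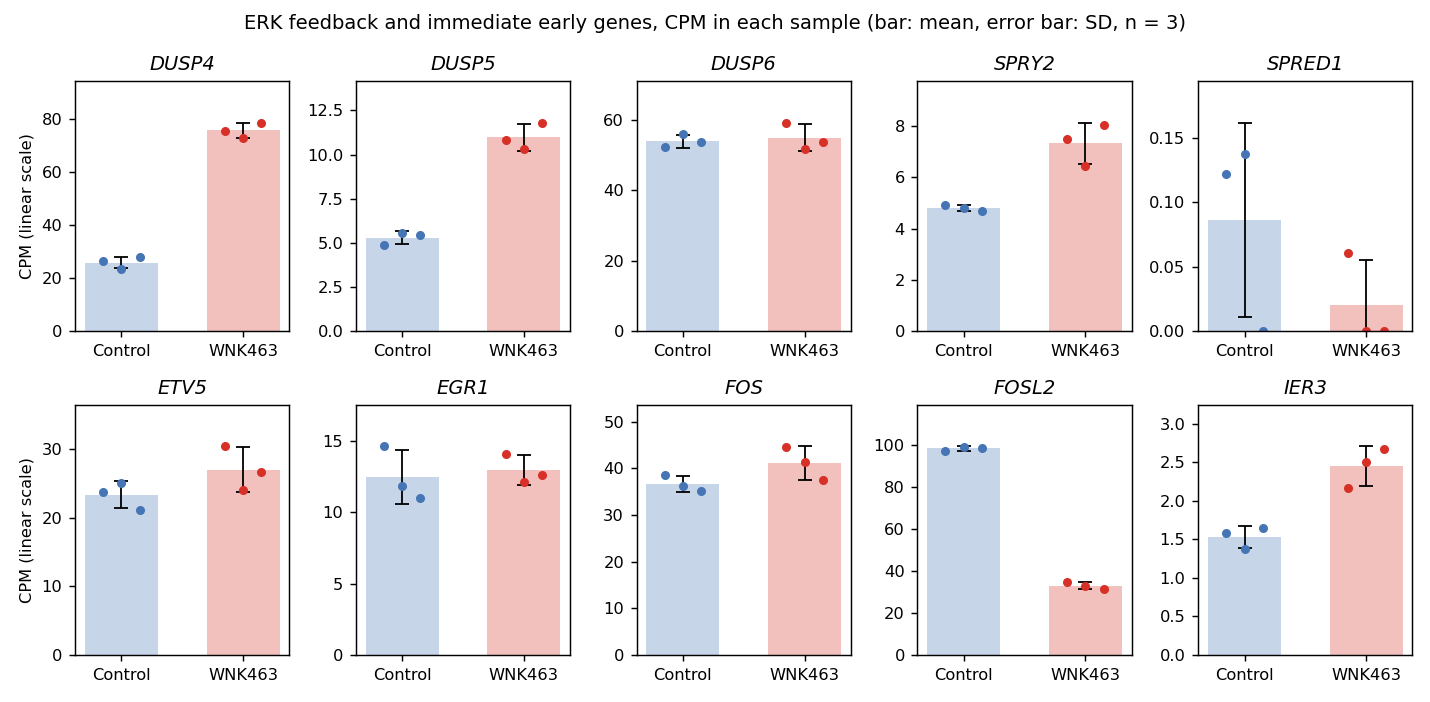
Normalized level of the 10 genes in each sample, in CPM on linear axes that start at 0 and differ between panels. Points are samples, bars are means and error bars are the SD of 3 samples. The WNK463 samples of *DUSP4* lie between 73.1 and 78.7 CPM, above all Control samples, and those of *FOSL2* lie between 31.2 and 34.7 CPM, below all Control samples.

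The phosphatases went apart. *DUSP4* (ENSG00000120875, chromosome 8 from 29333064 to 29350668, GRCh38, minus strand) encodes a nuclear phosphatase of ERK and JNK. Control samples had 26.4, 23.5 and 27.9 CPM, and WNK463 samples had 75.6, 73.1 and 78.7 CPM. The lowest WNK463 sample was well above the highest Control sample. *DUSP4* rose by 1.54 on the log2 scale (SE 0.07, edgeR adjusted p = 2.5e-12), or 2.91-fold with a 95% interval of 2.63 to 3.23. By log2 fold change *DUSP4* ranked 562 from the top among the 11973 genes tested.

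*DUSP5* (ENSG00000138166, chromosome 10 from 110497838 to 110511544, plus strand) encodes a nuclear phosphatase that is specific for ERK. It measured 4.87, 5.56 and 5.43 CPM in Control and 10.8, 10.3 and 11.8 CPM with WNK463, again without overlap. The rise was 1.06 on the log2 scale (SE 0.14, edgeR adjusted p = 1.7e-06), or 2.08-fold. For *DUSP4* and *DUSP5* all 14 alternatives kept the direction and passed, with log2 fold changes of 1.47 to 1.73 and of 0.99 to 1.23.

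*DUSP6* (ENSG00000139318, chromosome 12 from 89347232 to 89353271, minus strand) encodes the cytoplasmic phosphatase of ERK and is the gene most often used as a marker of ERK output. The Control samples had 52.2, 56.0 and 53.6 CPM and the WNK463 samples 59.2, 51.8 and 53.7 CPM, so the groups overlapped. The log2 fold change of 0.03 did not pass (edgeR adjusted p = 0.73), and its 95% interval ran from 0.926-fold to 1.12-fold. A change as large as that of *DUSP5* lay outside this interval. An antisense gene overlaps exons of *DUSP6* in GENCODE 29, and without a stated strand setting its reads cannot be told apart.

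The makeup of these 3 phosphatase transcripts, taken alone, differed between the groups. Other phosphatase genes are outside this sum, so the shares depend on the choice of genes. Among them, *DUSP7* had a mean of 67.1 TPM in Control and 67.5 TPM with WNK463, above *DUSP6*. *DUSP10* had 12.3 TPM in Control and 41.65 TPM with WNK463. Of the summed TPM of these 3 genes, a length-adjusted measure, *DUSP6* made up 77.7%, 81.2% and 77.2% under Control, against 59.8%, 56.5% and 58.1% under WNK463. The share of *DUSP4* was 14.6% ± 2.02 (SD, n = 3) in Control and 31.6% ± 1.28 (SD, n = 3) with WNK463. Within each sample, the log2 ratio of *DUSP4* to *DUSP6* counts was -0.99, -1.25 and -0.94 in Control and 0.35, 0.50 and 0.55 with WNK463. *DUSP4* thus had fewer counts than *DUSP6* in every Control sample and more in every WNK463 sample. Counts are not adjusted for length, and in TPM *DUSP6* stayed above *DUSP4* in every sample. The ratio of counts does not depend on how libraries are scaled, and it differed by 1.52 between the groups (exact two-sided permutation test, p = 0.10, adjusted p = 0.14 over 7 pairs). A p of 0.10 is the smallest that 3 samples against 3 allow. The ratio of *DUSP4* to *DUSP5* also did not overlap, with means of 2.29 in Control and 2.78 with WNK463, and *DUSP5* to *DUSP6* went from -3.35 to -2.32 (exact permutation test, p = 0.10 each).

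**Figure D2:**
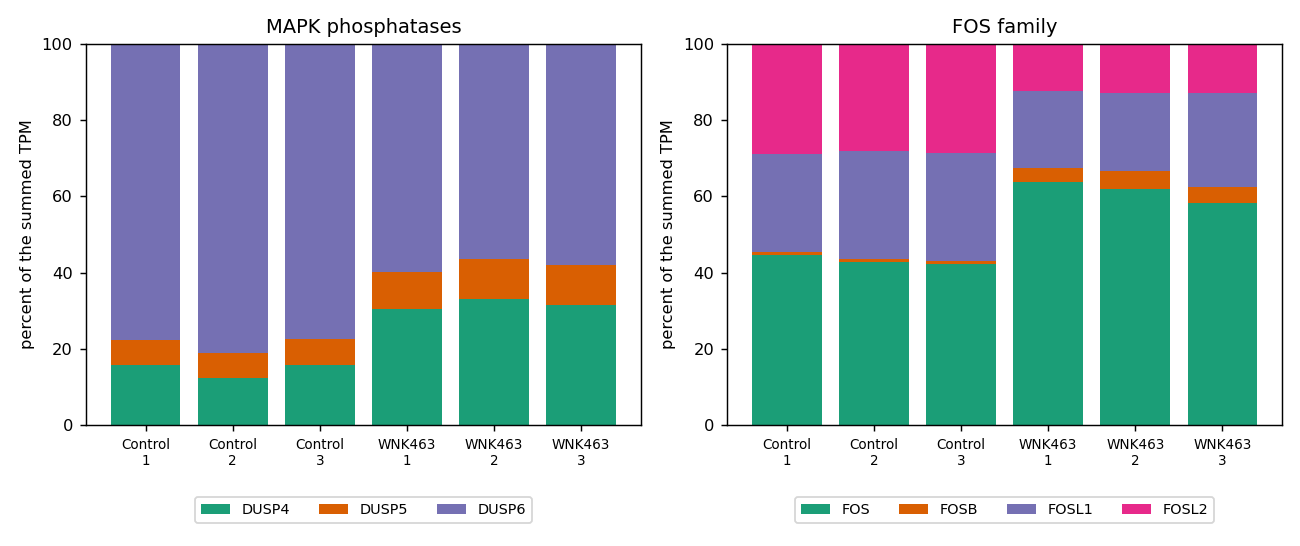
Share of each gene in a summed TPM, in percent, for every sample. The sum on the left is of *DUSP4*, *DUSP5* and *DUSP6* only, and that on the right is of *FOS*, *FOSB*, *FOSL1* and *FOSL2*. On the left *DUSP6* falls from 77.2% or more in the Control samples to 59.8% or less in the WNK463 samples, and on the right *FOSL2* falls from 28.2% or more to 12.9% or less.

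Among the upstream inhibitors, *SPRY2* (ENSG00000136158, chromosome 13 from 80335976 to 80340951, minus strand) encodes Sprouty 2, which dampens signaling from receptor kinases to RAS. Its level was 4.93, 4.80 and 4.70 CPM in Control and 7.49, 6.45 and 8.04 CPM with WNK463. All WNK463 samples were above all Control samples, with a log2 fold change of 0.60 (SE 0.16, edgeR adjusted p = 0.0023), or 1.52-fold with an interval of 1.21 to 1.91. The call held under all 14 alternatives, with log2 fold changes of 0.53 to 0.78. *SPRED1* (ENSG00000166068), whose product brings neurofibromin to RAS, was barely detected. It had 2, 2 and 0 counts in Control and 1, 0 and 0 counts with WNK463. Each sample was under 3 counts, so no fold change is given, and a difference in *SPRED1* was not detectable at this depth.

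The transcription factor *ETV5* (ENSG00000244405, chromosome 3 from 186046308 to 186110318, minus strand), an ETS factor of the PEA3 group, measured 23.8, 25.1 and 21.2 CPM in Control and 30.4, 24.0 and 26.7 CPM with WNK463. The second WNK463 sample fell within the Control range. The log2 fold change of 0.21 did not pass (edgeR adjusted p = 0.0573, interval 1.01-fold to 1.33-fold). It passed without Control replicate 2 (log2 fold change 0.25, adjusted p = 0.0482) and without WNK463 replicate 2 (0.29, adjusted p = 0.0176), whereas the log2 fold change dropped to 0.13 without Control replicate 3 (adjusted p = 0.25) and to 0.12 without WNK463 replicate 1 (adjusted p = 0.32). Over all 14 alternatives the adjusted p ranged from 0.0030 to 0.32. Exons of *ETV5* overlap exons of *DGKG* on the same strand in GENCODE 29.

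*EGR1* (ENSG00000120738, chromosome 5 from 138465490 to 138469315, plus strand) encodes a zinc finger transcription factor of the immediate early response. The Control samples had 14.6, 11.8 and 11.0 CPM and the WNK463 samples 14.1, 12.1 and 12.6 CPM. The first Control sample was the highest of the 6, and the WNK463 values lay within the Control range. Its log2 fold change of 0.05 did not pass (SE 0.12, edgeR adjusted p = 0.71), with an interval of 0.869-fold to 1.24-fold, and *EGR1* passed under none of the 14 alternatives (adjusted p 0.12 to 0.99).

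The sequences before a start of *EGR1*, which did not pass, and of *SPRY2*, which rose, are shown because they held different matches to the motifs searched. RefSeq promoter windows, from 250 bases before to 50 bases after a start, were matched for 6 of the 10 genes (*DUSP6*, *SPRY2*, *SPRED1*, *EGR1*, *FOS* and *FOSL2*), in 8 windows since *SPRY2* has 3 starts. *DUSP4*, *DUSP5*, *ETV5* and *IER3* were not matched. The motifs searched on both strands were the CArG box (the core of the serum response element), CCGGAA (an ETS core), TGACTCA (AP-1), TGACGTCA (the cyclic AMP response element) and GCGGGGGCG (an EGR site). Lower case is the 250 bases before the start on the strand of the gene, and capitals mark the motif matches.
*EGR1*, chr5:138465229-138465478, plus strand, GRCh38.p14: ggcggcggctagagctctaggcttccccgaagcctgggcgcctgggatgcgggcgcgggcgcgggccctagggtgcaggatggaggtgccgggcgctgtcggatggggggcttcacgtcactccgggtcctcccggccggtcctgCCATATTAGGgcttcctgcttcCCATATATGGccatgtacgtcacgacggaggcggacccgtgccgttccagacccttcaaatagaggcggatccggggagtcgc
*SPRY2*, chr13:80341127-80341376, minus strand, GRCh38.p14: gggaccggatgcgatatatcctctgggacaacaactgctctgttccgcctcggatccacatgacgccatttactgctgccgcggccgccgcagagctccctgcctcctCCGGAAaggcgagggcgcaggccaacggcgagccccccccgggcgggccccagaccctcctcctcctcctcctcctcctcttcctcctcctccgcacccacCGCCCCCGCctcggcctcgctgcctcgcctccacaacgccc

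In *EGR1* the capitals mark CArG boxes from -105 to -96 and from -83 to -74 relative to the start. In *SPRY2* they mark CCGGAA from -142 to -137 and, read on the other strand, GCGGGGGCG from -41 to -33. Both lay in the window of the start shown, which was picked for its matches, and the windows of the other *SPRY2* starts held none. The only other match was TGACTCA in *FOSL2*, from 5 to 11 after the start, and none of these matches overlapped another. A CArG box occurred in 1.29% of all 35116 windows of this length, CCGGAA in 17.2%, TGACTCA in 4.95%, TGACGTCA in 1.85% and GCGGGGGCG in 5.07%. A match describes the letters alone, and binding was not measured. Only CCGGAA was searched for ETS factors, so ETS sites with other letters are not marked in either sequence.

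*FOS* and *FOSL2* encode subunits of AP-1, a dimer of FOS and JUN proteins. *FOS* (ENSG00000170345, chromosome 14 from 75278774 to 75282230, plus strand) measured 38.5, 36.2 and 35.1 CPM in Control and 44.6, 41.3 and 37.4 CPM with WNK463. The third WNK463 sample was below the first Control sample. The log2 fold change of 0.17 did not pass (SE 0.08, edgeR adjusted p = 0.0555), and the interval ran from 1.01-fold to 1.26-fold. Under 7 of the 14 alternatives *FOS* passed, and the log2 fold change ranged from 0.10 to 0.32, with adjusted p-values from 0.0013 to 0.28 over all of them. Leaving out Control replicate 1 (log2 fold change 0.20, adjusted p = 0.0284) or WNK463 replicate 3 (0.23, adjusted p = 0.0191) was among these. The log2 fold change was lower, at 0.10, without WNK463 replicate 1 (adjusted p = 0.28) and at 0.13 without Control replicate 3 (adjusted p = 0.19). On the TPM scale the groups of *FOS* did not overlap, with 42.9, 42.5 and 41.8 TPM in Control and 59.5, 50.3 and 44.9 TPM with WNK463.

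*FOSL2* (ENSG00000075426, chromosome 2 from 28392448 to 28417312, plus strand) encodes FRA2, a FOS relative that lacks the strong activation domain of FOS. It had 97.1, 99.0 and 98.4 CPM in Control and 34.7, 32.8 and 31.2 CPM with WNK463. The groups were far apart and each was tight. *FOSL2* fell by 1.58 on the log2 scale (SE 0.06, edgeR adjusted p = 2.7e-13), to 0.335 of the Control level with an interval of 0.307 to 0.366. It ranked 204 from the bottom of the 11973 genes, and under the 14 alternatives the log2 fold change lay between -1.62 and -1.32 and passed each time.

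Between the FOS genes the ratio of counts within a sample changed sign, but counts are not adjusted for length. In TPM *FOS* was above *FOSL2* in every sample of both groups. The Control values were 42.9, 42.5 and 41.8 TPM for *FOS* and 27.7, 28.0 and 28.3 TPM for *FOSL2*. The log2 ratio of *FOS* to *FOSL2* counts was -1.33, -1.45 and -1.49 in Control and 0.36, 0.33 and 0.26 with WNK463, a difference of 1.74 (exact permutation test, p = 0.10, adjusted p = 0.14 over 7 pairs). The ratio of *EGR1* to *FOSL2* went from a mean of -2.98 to -1.34, also without overlap, whereas that of *EGR1* to *FOS* overlapped with means of -1.56 and -1.66 (exact permutation test, p = 0.50). The ratio of *SPRY2* to *SPRED1* overlapped (exact permutation test, p = 0.20) and rests on at most 2 counts of *SPRED1*. Of the summed TPM of *FOS*, *FOSB*, *FOSL1* and *FOSL2*, *FOS* made up 43.3% ± 1.15 (SD, n = 3) in Control and 61.3% ± 2.76 with WNK463, whereas *FOSL2* made up 28.6% ± 0.314 and 12.7% ± 0.397. The sum itself was 98.0 ± 1.57 TPM in Control and 83.8 ± 8.53 TPM with WNK463.

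*IER3* (ENSG00000137331, chromosome 6 from 30743199 to 30744554, minus strand) encodes a short-lived protein of the immediate early response that is a substrate of ERK. Its counts were low, with 26, 20 and 27 in Control and 36, 43 and 42 with WNK463, or 1.58, 1.37 and 1.65 against 2.17, 2.50 and 2.68 CPM. The groups did not overlap, and *IER3* rose by 0.67 on the log2 scale (SE 0.27, edgeR adjusted p = 0.0321), or 1.59-fold with a wide interval of 1.08 to 2.34. Under 8 of the 14 alternatives the call was lost, and the adjusted p ranged from 0.0024 to 0.10. Among these were the fits without each Control sample (adjusted p = 0.0668, 0.10 and 0.0571) and without WNK463 replicate 2 (0.0705) or 3 (0.10). The antisense gene *IER3-AS1* overlaps its exons, and without a stated strand setting reads of these genes cannot be told apart.

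**Figure D3:**
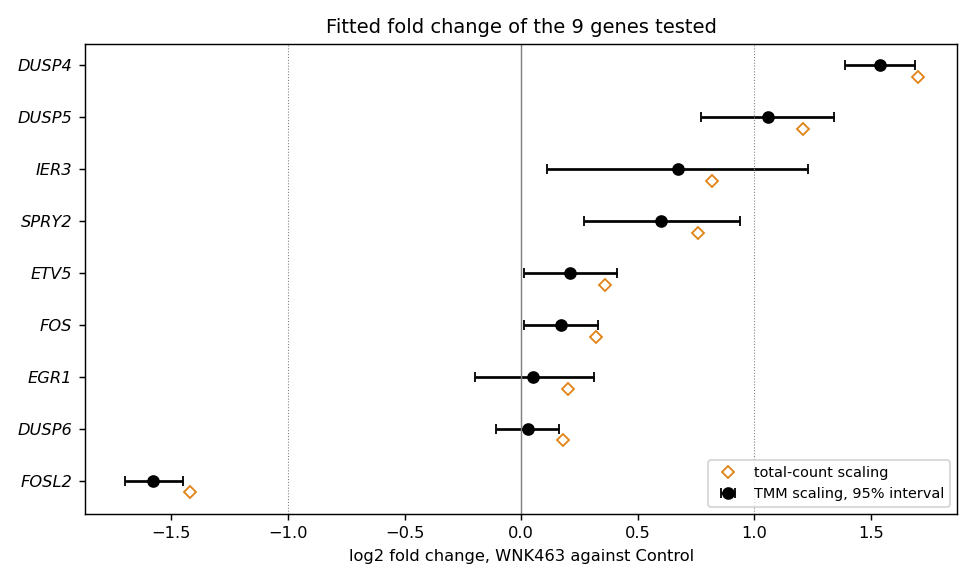
Log2 fold change of the 9 genes tested, WNK463 against Control, with 95% intervals under TMM scaling (black) and the value under total-count scaling (open diamonds). The intervals of *DUSP6* and *EGR1* include 0, and total-count scaling places every gene to the right of its TMM value, for example *FOSL2* at -1.42 in place of -1.58.

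The smaller changes depended on how the libraries were scaled. When libraries were scaled by their total counts and not by TMM, the median over the 11973 genes rose by 0.15 (log2), and 5525 genes were higher and 3123 lower, in place of 4251 and 4222. *DUSP6*, *ETV5* and *FOS* then passed as higher, with log2 fold changes of 0.18, 0.36 and 0.32 (adjusted p = 0.0208, 0.0030 and 0.0013 from edgeR), so that 7 genes were higher and 1 lower. Relative to the median of each scaling, these were 0.01, 0.20 and 0.15 in both. This sameness was fixed in advance, since a change of scaling shifts all genes by nearly the same amount. On this relative scale *DUSP4* was at 1.53, *DUSP5* at 1.04, *SPRY2* at 0.59, *IER3* at 0.65, *EGR1* at 0.04 and *FOSL2* at -1.59 under either scaling.

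**Figure D4:**
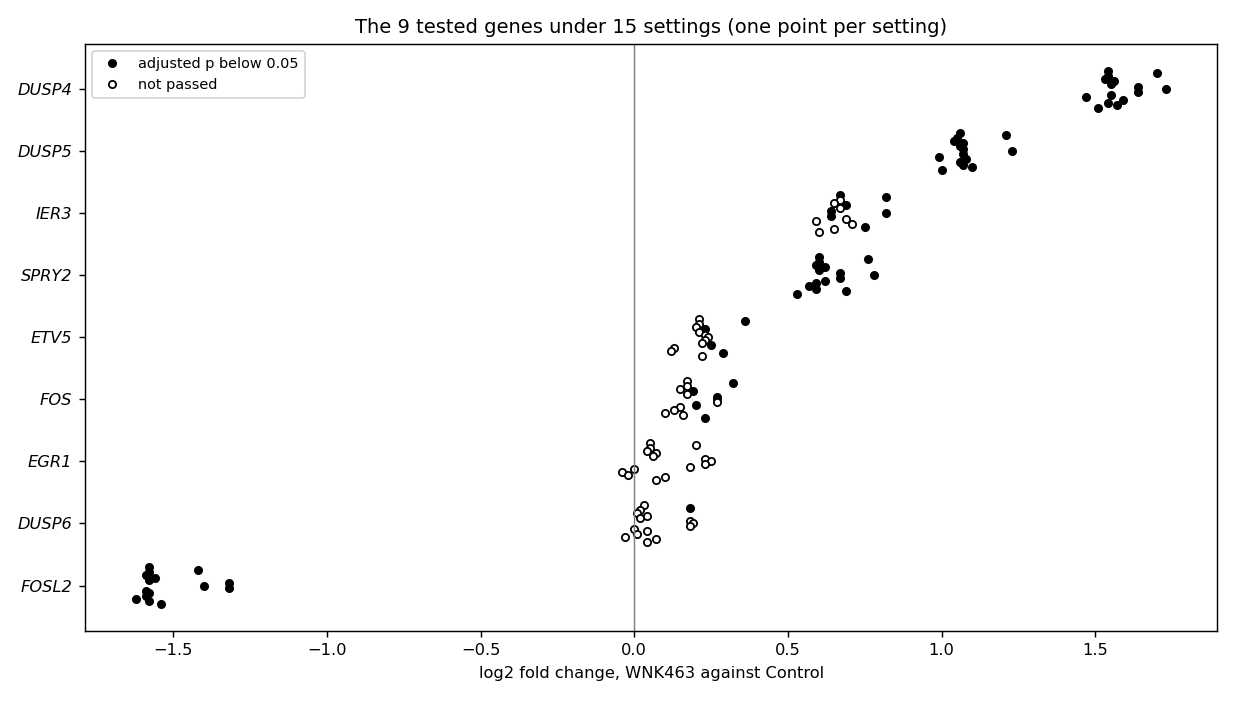
Log2 fold change of the 9 tested genes under all 15 settings, 1 point per setting, filled where the adjusted p is below 0.05 and open where it is not. *DUSP4*, *DUSP5*, *SPRY2* and *FOSL2* are filled throughout, *EGR1* is open throughout, and *IER3*, *ETV5*, *FOS* and *DUSP6* are mixed.

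Per length, the order of the genes changed with *DUSP4* and *FOSL2*. In Control the mean level was highest for *DUSP6* (47.0 TPM) and *FOS* (42.4 TPM), followed by *FOSL2* (28.0 TPM), *ETV5* (12.9 TPM), *DUSP4* (8.67 TPM) and *EGR1* (7.38 TPM). *DUSP5*, *SPRY2* and *IER3* had 3.96, 3.90 and 2.30 TPM, and *SPRED1* had 0.022 TPM. With WNK463 *DUSP6* (53.4 TPM) and *FOS* (51.5 TPM) still came first, then *DUSP4* (29 TPM), *ETV5* (15.5 TPM), *FOSL2* (10.6 TPM), *DUSP5* (9.42 TPM), *EGR1* (8.77 TPM), *SPRY2* (6.80 TPM) and *IER3* (4.14 TPM). The sample ranges of *DUSP4* and *EGR1* and of *DUSP5* and *SPRY2* overlapped in Control, where the lowest sample of *DUSP6* and the highest of *FOS* were both at 42.9 TPM after rounding. With WNK463 the ranges overlapped between *DUSP6* and *FOS*, between *FOSL2* and *DUSP5* and between *DUSP5* and *EGR1*, so these neighbors did not differ beyond their spread.

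The effective length that the counts and TPM imply, relative to the median gene of each sample, was stable for most of the genes. For *DUSP4* it lay between 2.05 and 2.10, and for *EGR1* between 1.16 and 1.19. It varied more for *ETV5*, from 1.19 to 1.5, for *DUSP6*, from 0.756 to 0.847, and for *FOS*, from 0.589 to 0.653, with the spread lying within the groups as well as between them. For these genes TPM and CPM therefore order the samples differently, and a TPM difference includes the estimated mix of transcripts.

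Beyond the 10 genes, 21 other ERK feedback genes and ETS targets were listed, of which 14 passed the filter. Like the lists below, this one was chosen with earlier results of these data known, so its counts are descriptive. By the same limit on the adjusted p, 9 rose and 4 fell, against 35.5% and 35.3% of all genes, and the median log2 fold change was 0.79. The largest rises were those of *PHLDA1*, a pleckstrin homology-like protein, at 2.00, of *LGALS3*, which encodes galectin-3, at 1.74, and of *DUSP10*, a phosphatase of p38 and JNK, at 1.5. *PHLDA1* went from 20.2, 20.4 and 22.7 CPM to 81.8, 84.5 and 88.0 CPM, which is 4.01-fold. As *DUSP10* shows, the list is not confined to genes that act back on ERK. Its other tested phosphatases went both ways. *DUSP1* and *DUSP16* rose by 0.65 and 0.93 on the log2 scale, *DUSP7* fell by 0.19 and *DUSP2* did not pass. The lower genes included *CCND1*, which encodes cyclin D1, at -0.87, *ETV4*, the closest relative of *ETV5* in this list along with *ETV1*, at -0.73, and *SPRED2* at -0.27. *SPRED2* did not keep its direction in TPM, where its log2 difference was 0.07, and *CCND1* did not pass with limma on TPM after the filter. *ETV4* fell from 7.43, 6.93 and 7.44 CPM to 3.80, 4.30 and 5.04 CPM, without overlap. *ETV1* went the other way, from 1.95, 0.754 and 1.52 CPM to 3.80, 2.67 and 2.43 CPM. Its log2 fold change was 1.06 (edgeR adjusted p = 0.0064), so the relatives of *ETV5* did not move together. The 4 genes *SPRY1*, *SPRY4*, *EPHA2* and *EPHA4*, often used as ERK readouts in other tissues and named after their values were seen, had at most 5 counts in any sample.

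Of 32 other immediate early genes, 30 were tested, 19 were higher and 6 lower, against 35.5% and 35.3% of all genes, with a median of 0.38 beside 0.02 for all genes. *NR4A2* and *NR4A3*, orphan nuclear receptors, and *FOSB* rose most. *NR4A2* went from 0.852, 1.44 and 1.89 CPM to 7.37, 7.33 and 6.26 CPM, and *FOSB* from 1.52, 1.03 and 1.40 CPM to 5.44, 5.17 and 4.15 CPM, with log2 fold changes of 2.32 and 1.89. *NR4A3* had 1 count in all Control samples together and 49 with WNK463, a ratio of 47.0 with an exact counting interval of 8.05 to 1894. It is among the 19 but passed the filter only through the WNK463 samples. The largest falls were those of *KLF2*, a zinc finger factor, at -0.97, of *FOSL1*, which encodes FRA1, at -0.74, and of *PLK2*, a polo-like kinase, at -0.50. *FOSL1* fell from 20.6, 23.5 and 22.8 CPM to 14.0, 12.0 and 14.0 CPM, so both FRA genes were lower while *FOSB* was higher. *KLF2* had at most 19 counts in a sample, and its call was lost under 8 alternatives.

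The 29 genes of the RAS-ERK cascade itself were all tested, and 12 were higher and 9 lower. These 21 of 29 lie near the 70.8% of all genes that were called. The median of 0.10 was 0.03 without Control replicate 1, close to the 0.02 of all genes. Only *GAB2*, an adaptor that binds the phosphatase SHP2, passed a limit of 1 on the log2 fold change, at 1.11. It went from 102.8, 106.7 and 98.4 CPM to 227.7, 215.3 and 220.8 CPM. *RPS6KA2*, a ribosomal S6 kinase downstream of ERK, and *SOS2*, an exchange factor for RAS, rose by 0.84 and 0.81 on the log2 scale. *NF1*, which encodes the RAS inhibitor neurofibromin, *HRAS* and the adaptor *SHC1* fell by 0.76, 0.68 and 0.48 on the log2 scale. *NF1* had 134.7, 129.9 and 126.6 CPM in Control and 79.5, 69.2 and 81.7 CPM with WNK463. The list's count of lower genes was 5 with scaling by total counts.

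**Figure D5:**
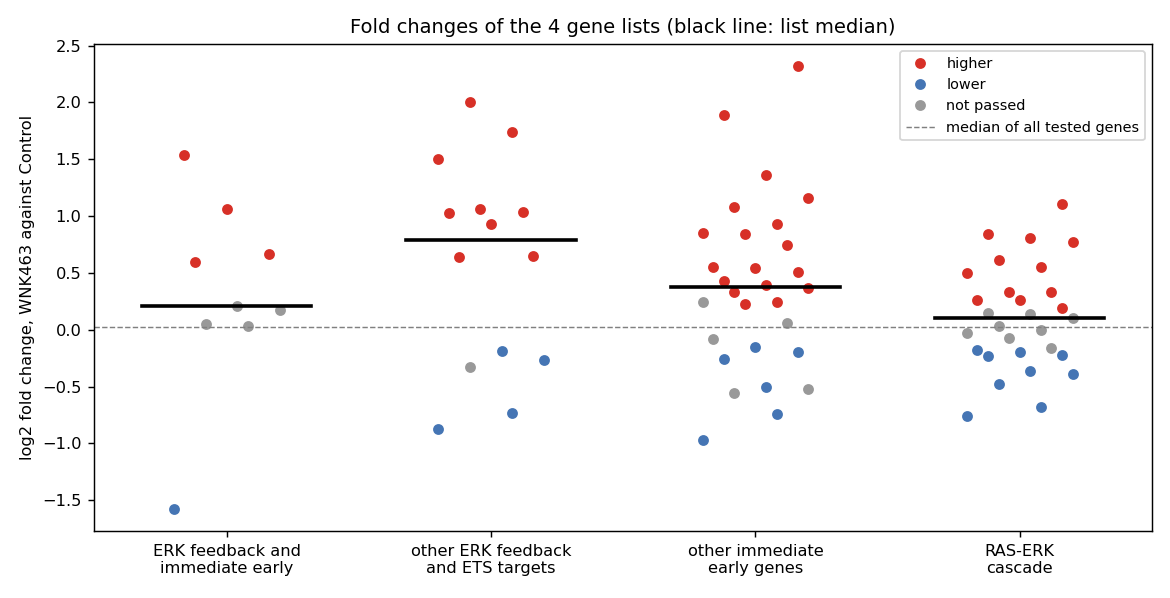
Log2 fold change of each tested gene in 4 lists, WNK463 against Control, colored by whether it was higher, lower or did not pass at an adjusted p of 0.05, with the list median as a black line and the median of all tested genes as a dashed line. *NR4A3* is left out because its Control counts were near 0. The medians are 0.21, 0.79, 0.38 and 0.10, and each list holds genes on both sides of 0.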

How the data were processed

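RNA-seq was made from 3 Control and 3 WNK463 samples of MV4-11 cells. The authors deposited estimated counts per gene, as whole numbers without normalization, and TPM values, for 20348 genes. The submitters' processing notes name fastp, Bowtie2, HISAT2, StringTie, RSEM, DESeq2, edgeR and GRCh38, without roles, and neither the annotation nor the strand setting is given in the sources used here. The deposited log2 fold changes and p-values of the authors' own comparison, and the mean TPM of each group, were not used.

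Counts were tested over all genes with edgeR 4.0.16 in R 4.3.3 (quasi-likelihood test after filterByExpr and TMM, p-values adjusted by Benjamini-Hochberg). The standard error (SE) of a log2 fold change was obtained from it and the F statistic of the test. Total counts lay between 14915745 and 17411780, and intervals for low counts cover counting error only. Alternatives comprised total-count scaling, DESeq2 1.42.0, a stricter and no filter, a fold limit, the replicate number as a block, limma 3.58.1 on log2 TPM and each sample left out. Ratios of a pair of genes were taken as log2 of counts + 0.5.

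The 10 genes and the gene lists were chosen with earlier results of these data known. Named are all 10 genes and, in each other list, the 3 genes per direction with the largest log2 fold change among those that passed. Any other gene named, markers included, falls outside this rule and was picked after its values were seen. Gene positions are from GENCODE 29 and promoter sequences from RefSeq (GRCh38.p14).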

Additional observations from a re-analysis of the deposited data

How the results depend on the processing

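Over 9 of the 10 genes and 14 alternatives each, 102 of 126 combinations kept the direction and the side of the threshold, 8 were weaker, 12 stronger and 4 reversed. The 8 weaker ones were all *IER3*. The 4 reversed ones were *DUSP6* and *EGR1*, which ranged from -0.03 to 0.07 and from -0.04 to 0.18 on the log2 scale when 1 sample was left out and did not pass in those reversals (*DUSP6* without Control replicate 1 or WNK463 replicate 1, *EGR1* without Control replicate 3 or WNK463 replicate 1). For the 21 genes of the other lists that the naming rule gave, 274 of 288 combinations kept both, 11 were weaker and 3 reversed, the latter being *SPRED2* with limma on TPM (0.07 in each of the 3 settings). Except where stated, the cause was not tested. Low counts limit *IER3*, *KLF2*, *NR4A3* and *SPRED1*.

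Scaling by total counts, which shifts all genes upward, gave 7 of the 9 genes higher with a median log2 fold change of 0.36. It gave 2 lower and a median of 0.94 for the other ERK feedback genes, 3 lower and 0.53 for the other immediate early genes, 5 lower and 0.25 for the cascade, and a median of -0.58 for the heat shock genes. With limma on log2(TPM + 1), log2(TPM + 0.1) and log2(TPM + 1) without a filter, the genes lower in these lists numbered 1, 1 and 2 for ERK feedback, 2, 2 and 3 for immediate early genes, 4, 4 and 4 for the cascade and 2643, 2634 and 2635 among all genes. Their medians in that order were 0.53, 0.56 and 0.49 for immediate early genes, 0.20, 0.22 and 0.20 for the cascade and -0.53, -0.54 and -0.53 for heat shock genes, while the 9 genes had 0.27 with log2(TPM + 0.1) and the ERK feedback list 0.23 without a filter. Without a filter on counts the ERK feedback median was 0.63 and the cascade median 0.09, and requiring 10 or more counts per sample made the latter 0.12. With the limit of 1 on the log2 fold change, by construction fewer genes passed, with 2 of the 9 genes higher, 0 lower in the ERK feedback list, 6 higher and 0 lower among immediate early genes, 1 higher and 0 lower in the cascade, 2 heat shock genes lower, and 1152 higher and 665 lower of all genes. Leaving out 1 sample at a time, the medians ranged from 0.12 to 0.29 for the 9 genes, 0.69 to 0.85 for ERK feedback, 0.35 to 0.44 for immediate early genes, 0.03 to 0.11 for the cascade and -0.79 to -0.72 for heat shock genes.

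Replicate numbers were shared by the groups, but same-numbered samples did not deviate together (correlations 0.02, -0.01 and -0.05), and 1 of 6 samples correlated best with its own number. With a replicate block 4 of the 9 genes were higher and 1 lower, and 4223 of all genes were higher and 4175 lower. *IER3* was not called under the block (edgeR adjusted p = 0.0532), and *FOS*, which narrowly missed the threshold in the main fit, narrowly passed it.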

Other observations

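Heat shock genes encode chaperones and their helpers, and those listed were lower after WNK463. All 8 listed genes were tested and fell at an adjusted p below 0.05 from edgeR, with a median log2 fold change of -0.73, against 35.3% of all genes called lower. *HSPB1*, a small heat shock protein, fell from 30.7, 29.3 and 27.0 CPM to 7.61, 8.20 and 7.85 CPM, a log2 fold change of -1.88. *HSP90AA1*, the inducible HSP90 chaperone, had 1979, 2297 and 2475 CPM in Control and 1123, 1133 and 1086 CPM with WNK463, a log2 fold change of -1.01. *HSPA8*, the constitutive HSP70 chaperone, fell by 0.92 on the log2 scale. *HSPA1A* and *HSPA1B*, named after their values were seen, are near-identical copies whose reads the counting could split, and they had log2 fold changes of -0.90 and -0.57. *BAG3* fell least, by 0.21 on the log2 scale, and its groups overlapped in TPM. The direction of the list was the same with total-count scaling, where the median was -0.58 and 7 genes passed as lower. The list was chosen with earlier results of these data known, so its count describes these genes and tests nothing.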
